A study of Mus musculus with 90 samples.

Results

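Mss51 is 1 of the 20414 genes in this expression matrix of female C57BL/6 mice (the name in the labels; C57BL/6J in the study's methods) (Entrez Gene identifier 74843), and the gene was taken because its level in skeletal muscle differed between estrus and diestrus in these same libraries. Its tissue pattern and its difference in muscle are therefore given as descriptions, with no test. The 90 libraries came from 15 tissues, with 3 libraries in estrus and 3 in diestrus for each tissue. All mice were normal females, 10 weeks old per the labels (the study's methods give a younger age). The phase of each mouse was read from vaginal cytology, and the study also measured serum estrogen and progesterone as an aid. Estrus is the phase around ovulation and diestrus is the later, progesterone-dominated phase. The muscle dissected is named only as skeletal muscle, and neither the labels nor the study's methods say which muscle it was. The values are FPKM, the fragments counted for a gene divided by the length of its transcript and by the size of the library, so that levels of different genes can be set side by side. The file holds no counts. From the steps between low values, 88 libraries were put at about 8.9M to 17.1M reads and the 6 muscle libraries at about 13.8M to 15.5M, where 57.8% to 71.1% of low values in the muscle libraries lay within 0.2 reads of a whole number (evenly spread values would give 40%), so that these depths are approximate. The search ran from 5M to 20M reads. The study's methods give a larger number of reads per sample, which this search could not return. One liver library gave no estimate, and the BAT (brown adipose tissue) library of estrus replicate 3 stood apart, with 12048 genes at 0 against 2404 to 4820 in the other 89 libraries.

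Mss51, also named Zmynd17, encodes a mitochondrial protein with a MYND zinc finger. In mouse muscle its transcript is known mainly from fast, glycolytic fibres, and it is known to be lowered when myostatin or transforming growth factor beta (TGF-beta) signalling is blocked. Its yeast relative is a translational activator and assembly factor for COX1, the core subunit of cytochrome c oxidase. Adult mouse muscle mixes fibres that carry the slow myosin Myh7 with fast fibres that carry Myh2, Myh1 or Myh4 (types IIa, IIx and IIb), so that the fibre mix of a dissected piece sets the level of many of its transcripts.

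The gene lies on the minus strand of chromosome 14, at chr14:20482857-20496901 in GRCm38.p6 as RefSeq annotates it, and no other annotated gene overlaps it. GENCODE M21 gives it 7 exons on the same build. The libraries were not stranded, and no antisense gene shares its exons. The RefSeq promoter window, chr14:20496852-20497151 on the minus strand, runs from 250 bases before to 50 bases after the start of the gene. It is shown because Mss51 is set beside Smad-dependent and fibre-type genes throughout what follows. The capitals mark the palindrome GTCTAGAC, known as a Smad-binding sequence.

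Mss51 promoter: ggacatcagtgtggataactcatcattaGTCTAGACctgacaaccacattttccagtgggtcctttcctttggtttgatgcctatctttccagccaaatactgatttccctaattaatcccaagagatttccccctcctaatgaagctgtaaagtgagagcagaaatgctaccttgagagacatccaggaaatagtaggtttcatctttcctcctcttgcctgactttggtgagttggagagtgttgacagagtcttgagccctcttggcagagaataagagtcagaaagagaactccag

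Of the 32851 promoter windows of the same length, 70 (0.213%) hold GTCTAGAC, and in Mss51 it begins 222 bases before the start. This palindrome reads the same on both strands, and it was searched for after the sequence had been seen. Of 4 other motifs searched on both strands, the window holds 0: the E-box CANNTG (in 72.3% of all windows), the MEF2 site (in 3.19%), the estrogen response half-site GGTCA (in 40.5%) and the Smad sequence CAGAC (in 49.6%). A match or its lack in these 300 bases is a description of letters, not of binding.

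Skeletal muscle had the highest Mss51 level of the 15 tissues, with a mean of 12.2 FPKM ± 6.00 (SD, n = 6 libraries of both phases), and the lowest muscle library lay 1.21-fold above the highest library of any other tissue. The mean of muscle was 12.0-fold the mean of the other 14 tissues. Spleen came next, at 3.19 to 4.71 FPKM with a median of 4.22, and the mean of muscle was 3.02-fold that of spleen. Below spleen stood uterus (1.15 to 3.89, median 1.95), ovary (1.2 to 2.0, median 1.37) and duodenum (0.86 to 2.31, median 1.26). In the remaining 10 tissues the mean was under 1 FPKM. In descending order of their means these were stomach (0.41 to 1.21), vein (0.51 to 1.26), WAT, the white adipose tissue (0.43 to 0.90), kidney (0.36 to 0.93), aorta (0.30 to 1.32), BAT (0 to 1.21), liver (0.38 to 0.72), hypothalamus (0.26 to 0.48), heart (0.19 to 0.37) and cerebrum (0.18 to 0.41). The step from muscle to spleen was the only one in this order without overlap between neighbours, as the libraries of every other pair of neighbouring tissues overlapped. The single library at 0 was the BAT library with 12048 genes at 0. In bulk tissue, fewer cells that use a gene and less RNA per cell cannot be told apart. Outside muscle, the approximate depths put between 4 and 135 reads behind each value in the libraries with a depth estimate.

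**Figure D1:**
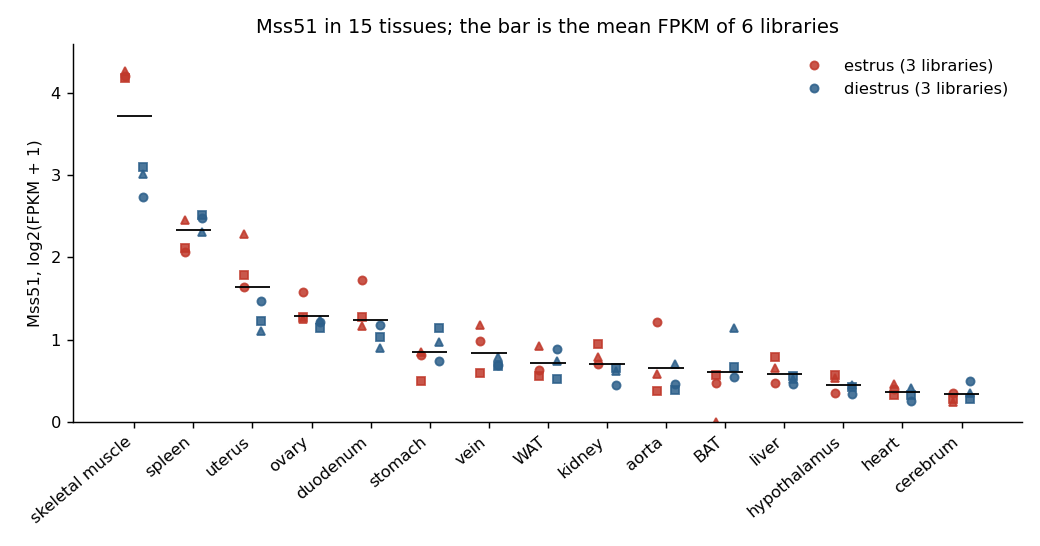
Mss51 level, as log2(FPKM + 1), in every library of the 15 tissues, ordered by mean FPKM; red points are estrus, blue points diestrus, the marker shape is the replicate number, and the bar is the mean FPKM of 6 libraries placed on the same scale. The 3 estrus muscle libraries lie at 17.17 to 18.32 FPKM and the 3 diestrus ones at 5.69 to 7.58 FPKM, above all libraries of the other tissues.

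In muscle, the 3 estrus libraries had Mss51 at 17.5, 17.17 and 18.32 FPKM, whereas the 3 diestrus libraries had it at 5.69, 7.58 and 7.07 FPKM. The estrus libraries were all high and close to each other, and the phases did not overlap. The means were 17.7 FPKM ± 0.592 (SD, n = 3) in estrus and 6.78 FPKM ± 0.978 (SD, n = 3) in diestrus, a ratio of 2.61. On the log2(FPKM + 1) scale the difference was 1.27, beside a pooled SD between libraries of 0.14. About 465 to 516 reads stood behind each estrus value and 143 to 194 behind each diestrus value. In all, 10680 genes were tested in muscle with limma, those averaging 1 FPKM or more, Mss51 included. A call needed an absolute log2 difference of 1 or more with an adjusted p up to 0.05. The 1 gene (0.00936%) called higher in estrus was Mss51 itself, and 0 (0.0%) were called lower. Since the gene was chosen for this difference, its call repeats the choice and is no test. Of the other genes, Mad2l1bp had the lowest adjusted p (0.0294, limma) at -0.86, under the fold limit. At an unadjusted p under 0.05, 304 genes (2.85%) were higher and 1921 (18.0%) lower. The libraries of the phases did not overlap for 456 genes (4.27%) that were higher in estrus and 2337 (21.9%) that were lower. The split by direction depended on the scaling: 13.7% of the genes with an unadjusted p under 0.05 were higher in estrus on FPKM as deposited, 40.3% after median ratio scaling and 47.6% after quantile normalization. The median log2 difference of all genes moved from -0.08 to 0.01 and 0.02, while that of Mss51 was 1.27, 1.36 and 1.37.

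The muscle libraries were skeletal by their markers, with the 12 fibre genes Acta1, Ckm, Myh4, Myh1, Myh2, Actn3, Tnnt3, Mylpf, Mylk2, Neb, Ryr1 and Cacng1 summing to 84300, 94500 and 98400 FPKM for estrus against 78900, 83100 and 88000 for diestrus. Their fibre type differed from library to library. Of the summed FPKM of the 4 adult myosin heavy chains, Myh4, the type IIb myosin, took 80.1%, 91.4% and 93.9% in estrus and 72.4%, 76.5% and 73.9% in diestrus. The phases did not overlap, with a difference of 14.2 percentage points between 88.4% ± 7.36 and 74.3% ± 2.11 (SD, n = 3 each; exact permutation test, two-sided, p = 0.1, the smallest that 3 against 3 can give; 0.2 adjusted over the 4 myosins). Myh2, the type IIa myosin, took 5.80%, 0.986% and 1.41% in estrus and 11.5%, 5.90% and 6.59% in diestrus (exact permutation p = 0.1). Estrus replicate 1 was close to the lower diestrus libraries in this share. Myh1, the type IIx myosin, took 13.4%, 7.64% and 4.73% against 12.7%, 16.7% and 18.8%, and these shares overlapped (exact permutation p = 0.2). Myh7, the slow myosin, took 0.749%, 0.00616% and 0.00174% in estrus and 3.38%, 0.888% and 0.683% in diestrus, again with overlap (exact permutation p = 0.2).

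Estrus replicate 1 was close to diestrus replicates 2 and 3 in slow fibre transcripts, and its Mss51 level was that of the other estrus libraries. Myh7 stood at 69.35, 0.59 and 0.19 FPKM in the estrus libraries and at 246.56, 73.73 and 55.68 FPKM in the diestrus libraries. Within estrus, Myh7 therefore spanned 365-fold from the lowest to the highest library while Mss51 spanned 1.07-fold. Within diestrus, Myh7 spanned 4.43-fold and Mss51 1.33-fold. Tnnt1, the slow troponin T, followed Myh7 at 147.75, 1.90 and 3.15 FPKM against 483.44, 152.25 and 118.11. Relative to the mean of diestrus replicates 2 and 3, estrus replicate 1 had 1.07 times the Myh7, 1.09 times the Tnnt1, 1.07 times the slow troponin C Tnnc1 and 1.05 times the Myh2. It had 1.2 times the Myh4, 0.983 times the Actn3 (the fast-fibre alpha-actinin) and 0.963 times the Ckm (muscle creatine kinase). For Mss51 the same ratio was 2.39, a log2(FPKM + 1) difference of 1.15 in this set of 3 libraries, which was chosen after the data had been seen. This set has 1 estrus library, so that the ratio has no replicate check. Mss51 was chosen for its split by phase, so a high value in estrus replicate 1 follows from the choice. The Myh4 share of that library, 80.1%, was above the 76.5% and 73.9% of diestrus replicates 2 and 3. The part of the fibre mix in the difference of Mss51 was not tested.

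**Figure D2:**
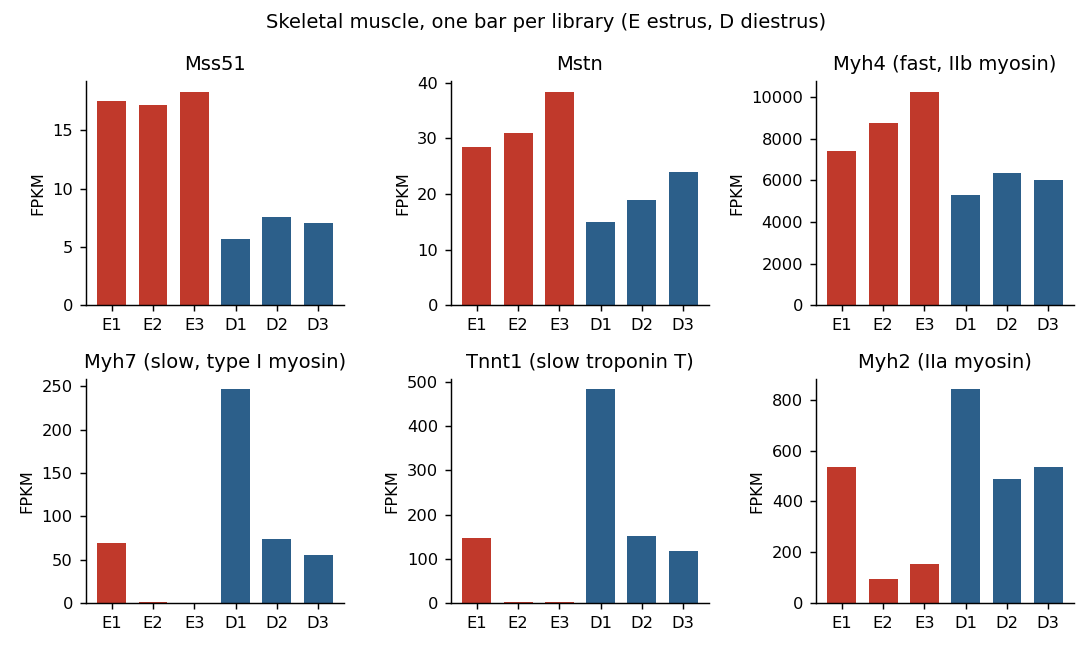
FPKM of Mss51, Mstn, Myh4, Myh7, Tnnt1 and Myh2 in each skeletal muscle library, with bars from 0, red for estrus replicates 1 to 3 (E1 to E3) and blue for diestrus replicates 1 to 3 (D1 to D3). Estrus replicate 1 is near diestrus replicates 2 and 3 for Myh7, Tnnt1 and Myh2, and near the other estrus libraries for Mss51, at 17.5 FPKM.

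Set against fast fibre genes, the difference in Mss51 was smaller than on its own. Per 1000 FPKM of summed Myh1, Myh2 and Myh4, Mss51 stood at 1.91, 1.79 and 1.67 FPKM in estrus against 0.808, 0.922 and 0.873 in diestrus. The means were 1.79 ± 0.116 and 0.868 ± 0.0573 (SD, n = 3 each), a ratio of 2.06. Per 1000 FPKM of Myh4 alone the ratio of the phases was 1.77, per Actn3 2.09 and per Ckm 2.29. The lowest estrus library lay above the highest diestrus library with each of these 4 denominators. That could not have come out otherwise. The fold between the lowest estrus and the highest diestrus value of Mss51 exceeds that between any 2 muscle libraries for each denominator. The lack of overlap therefore says nothing on the fibre mix, whose part in the difference was not tested.

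Other cell types of the tissue also differed between these libraries. The summed FPKM of the fibroblast markers Col1a1, Col1a2, Col3a1, Dcn and Pdgfra was 194 to 296 in estrus and 317 to 400 in diestrus, with 2 of 5 members wholly lower in estrus, as 21.9% of all genes were. That of the endothelial markers Pecam1, Cdh5, Kdr and Tie1 was 49.3 to 74.2 against 79.0 to 83.6, with 2 of 4 wholly lower. That of the smooth muscle markers Myh11, Acta2, Tagln and Cnn1 was 39.2 to 48.3 against 50.3 to 58.6, with 3 of 4 wholly lower. That of the tendon markers Tnmd, Scx, Comp and Fmod was 11.6 to 36.4 against 43.6 to 118, with 2 of 4 wholly lower. The nerve and Schwann cell sum (5 markers) was 43.1 to 82.5 against 78.9 to 99.6, and the macrophage and leukocyte sum (4 markers) was 5.47 to 7.77 against 7.57 to 10.9. For white adipocyte markers (6, Adipoq and Cfd among them) the sum was 102 to 281 against 29.3 to 257, and for satellite cell markers (3) 7.63 to 9.83 against 9.31 to 9.88. Brown adipocyte markers (3) summed to 0.52 to 2.86 against 3.03 to 3.64 FPKM, with Ucp1 at 0 to 1.61 FPKM and with Cidea, the only member tested, wholly lower in estrus (-0.69, SE 0.17, limma adjusted p = 0.107). Cardiomyocyte markers (7) summed to 493 to 1520 against 781 to 1000 FPKM. Nearly all of that sum was Actc1, which skeletal fibres also express, at 489.67 to 1515.06 FPKM, while Tnnt2 was wholly lower in estrus (-0.98, SE 0.25, adjusted p = 0.108) and the atrial light chain Myl7 was at 0 in all 6 libraries. Mss51 lay the opposite way to the fibroblast, endothelial, smooth muscle, tendon and brown adipocyte sums, and their part in its difference was not tested.

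Slow fibre genes made up the list with the largest differences in muscle. Of its 13 genes 12 were tested, and all 12 had lower means in estrus, with a median log2 difference of -3.05 beside -0.08 over all genes. None was called (limma), 11 had an unadjusted p under 0.05, and the lowest adjusted p was 0.144. The phases did not overlap for 2 of 12, the light chains Myl3 and Myl2, against 21.9% of all genes that were lower without overlap. Myl3 stood at 258.88, 20.61 and 8.81 FPKM in estrus against 976.72, 303.83 and 349.98 in diestrus, a log2 difference of -3.63 (SE 1.14, limma adjusted p = 0.144). Estrus replicate 1 was within or above the range of the diestrus libraries for 10 of the 12 genes, and estrus replicates 2 and 3 were below that range for 12 of 12, as 38.7% of all genes were. Without estrus replicate 1, 85 of 10653 genes (0.798%) were called lower, all 12 slow fibre genes among them, and the median of the list was -4.29. In the fit of all 90 libraries, 12 genes (0.0788%) were called lower, and 7 of the 13 slow fibre genes were among them.

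Fast fibre genes leaned the other way. All 15 were tested and the median log2 difference was 0.24 (0.34 after median ratio scaling and 0.09 after quantile normalization). None was called, 5 were higher and 1 lower at an unadjusted p under 0.05, and the lowest adjusted p was 0.108 (limma). The phases did not overlap for 5 of 15, each higher in estrus, against 4.27% of all genes. With estrus replicates 2 and 3 alone, 12 of 15 lay above the diestrus range, against 7.42% of all genes. Myh4 stood at 7408, 8756 and 10269 FPKM in estrus against 5279, 6352 and 6022 in diestrus, a log2 difference of 0.57 (SE 0.14, limma adjusted p = 0.108). Pvalb, the calcium buffer parvalbumin, differed by 0.39 (SE 0.13, adjusted p = 0.162) and Mylk2, the skeletal myosin light chain kinase, by 0.37 (SE 0.11, adjusted p = 0.129). The most abundant members, the fast troponin T Tnnt3 and the light chain Myl1, had log2 differences of 0.06 and 0.24 with overlapping phases. Myh1 (-0.69) and Myh2 (-1.60) were the 2 members below 0 on FPKM as deposited. Both were called lower without estrus replicate 1, in a fit where 85 of 10653 genes (0.798%) were.

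Genes of glycogen use and glycolysis, which fast IIb fibres rely on, showed smaller differences. All 19 were tested, the median log2 difference was 0.11, and none was called (2 higher and 2 lower at an unadjusted p under 0.05, lowest limma adjusted p = 0.101). Ampd1, the muscle AMP deaminase, stood at 686.73, 762.61 and 785.56 FPKM in estrus against 488.87, 551.24 and 599.72 in diestrus, a difference of 0.45 without overlap (SE 0.10, adjusted p = 0.101). Gys1, the muscle glycogen synthase, lay the other way without overlap, at -0.27 (SE 0.06, adjusted p = 0.102), as did the hexokinase Hk2 at -0.46 (SE 0.15, adjusted p = 0.154). Of the 19 genes, 1 was higher and 2 were lower without overlap, where 4.27% and 21.9% of all genes were so. Ckm and the aldolase Aldoa, the most abundant members, differed by 0.20 and 0.19 with overlap. Leaving out estrus replicate 2 moved the median of this list to -0.01.

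In the myostatin and TGF-beta pathway, the ligand myostatin lay higher in all 3 estrus libraries and several members of the TGF-beta branch lay lower, and none passed the test. Of 24 genes 21 were tested, the median log2 difference was -0.07 (0.02 after median ratio scaling and 0.03 after quantile normalization), none was called, and the lowest adjusted p was 0.0867 (limma; 1 higher and 5 lower at an unadjusted p under 0.05). The phases did not overlap for 1 gene that was higher and 5 that were lower, of the 21, where 4.27% and 21.9% of all genes did so. Mstn, the myostatin gene, stood at 28.48, 30.92 and 38.35 FPKM in estrus against 14.96, 18.90 and 23.97 in diestrus, a difference of 0.74 (SE 0.18, adjusted p = 0.107). All 3 estrus libraries lay above the diestrus range, as for Mss51. Estrus replicate 1 had 1.33 times the Mstn of diestrus replicates 2 and 3. Without estrus replicate 1 the difference of Mstn was 0.83 (SE 0.19, adjusted p = 0.0411), still below the fold needed for a call. In that fit other members had smaller adjusted p (limma) and lay lower in estrus, also below that fold. These were Fstl1 (-0.85, adjusted p = 0.0135), Tgfbr2 (-0.60, 0.0196), Ltbp4 (-0.71, 0.0199) and Tgfb1 (-0.58, 0.02). Such values were common in that fit. An adjusted p within 0.05 was reached by 5 of these 21 genes, 12 of 12 slow fibre genes and 12 of 14 oxidase subunits. The share over all genes was not counted. With any other library left out, 0 of the genes tested in this list reached it. The related ligand Gdf11 differed by 0.33 (SE 0.17, adjusted p = 0.325) with overlap, and Tgfb1, the first TGF-beta ligand, by -0.47 without overlap (SE 0.11, adjusted p = 0.108).

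Among the receptors, Acvr2b and Acvr2a, through which myostatin acts, differed by 0.18 (SE 0.11, adjusted p = 0.385) and 0.26 (SE 0.12, adjusted p = 0.260), and their type I partner Acvr1b by 0.28 (SE 0.26, adjusted p = 0.583). The phases overlapped for all 3. The TGF-beta receptors Tgfbr2 and Tgfbr3 were lower without overlap, at -0.49 (SE 0.12, adjusted p = 0.108) and -0.38 (SE 0.12, adjusted p = 0.141). The signal transducer Smad3, 1 of the 2 most abundant members, stood at 22.65, 35.72 and 26.71 FPKM against 29.80, 30.55 and 27.86, with no separation of the phases (-0.07, SE 0.15, adjusted p = 0.825). Smad4 differed by 0.06 and the inhibitory Smad7 by 0.09, both with overlap. Fstl1, a secreted follistatin-like glycoprotein, had the lowest adjusted p of the list, at 13.54, 13.04 and 10.70 FPKM against 23.45, 20.06 and 22.98 (-0.79, SE 0.11, adjusted p = 0.0867). Ltbp4, which tethers latent TGF-beta in the matrix, followed at -0.63 (SE 0.11, adjusted p = 0.0938). Both are also made by fibroblasts, whose marker sum was lower in estrus, and the part of that in these values was not tested. The antagonist follistatin, Fst, differed by -0.29 with overlap (SE 0.16, adjusted p = 0.352).

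The myogenic transcription factors leaned towards estrus. Of 14 genes 13 were tested, with a median log2 difference of 0.20, none called, and 4 of 13 higher without overlap against 0 lower, where 4.27% and 21.9% of all genes were so. At an unadjusted p under 0.05, 3 were higher and 0 lower (lowest limma adjusted p = 0.122). Those without overlap included Eya4 (0.43, SE 0.12, adjusted p = 0.122), which favours the fast programme, Sox6 (0.25, SE 0.09, adjusted p = 0.173), which represses slow fibre genes, and Tbx15 (0.20, SE 0.09, adjusted p = 0.264). Mef2c and Nfix, the most abundant members, each differed by 0.05 with overlap, and Myod1, the master regulator of the lineage, by 0.23 with overlap (SE 0.21, adjusted p = 0.587).

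On FPKM as deposited, mitochondrial genes leaned towards diestrus, those of cytochrome c oxidase most evenly. All 14 nuclear-encoded subunits had lower means in estrus, with a median log2 difference of -0.39 and a range of -0.54 to -0.25. None was called, 12 had an unadjusted p under 0.05 and the lowest adjusted p was 0.0938 (limma). The phases did not overlap for 11 of 14, where 21.9% of all genes were lower without overlap, and estrus replicates 2 and 3 alone lay below the diestrus range for 14 of 14, as for 38.7% of all genes. Cox6a1 stood at 54.01, 47.77 and 37.92 FPKM in estrus against 61.46, 67.18 and 73.96 in diestrus (-0.54, SE 0.13, adjusted p = 0.108). Cox4i1 and Cox6b1 differed by -0.45 and -0.44 without overlap. The most abundant subunits were Cox6a2, the muscle form of subunit VIa, at -0.26 with overlap, and Cox7c at -0.37 without overlap. After median ratio scaling the median of the subunits was -0.29 with 10 at an unadjusted p under 0.05, and after quantile normalization -0.14 with 5. For the genes of COX1 translation and oxidase assembly, 21 of 22 were tested, 20 had lower means in estrus, and the median was -0.19. None was called, and 7 of 21 had an unadjusted p under 0.05, each lower, against 18.0% of all genes (lowest limma adjusted p = 0.105). The phases did not overlap for 8 of 21, each lower, against 21.9% of all genes. Taco1, the mammalian translational activator of COX1, stood at 30.10, 23.05 and 28.04 FPKM against 31.62, 31.15 and 31.70, without overlap (-0.22, SE 0.10, adjusted p = 0.267). Lrpprc, which stabilizes mitochondrial messenger RNAs, differed by -0.35 (SE 0.10, adjusted p = 0.119), the haem synthesis enzyme Cox10 by -0.30 (SE 0.07, adjusted p = 0.105) and the copper chaperone Sco2 by -0.38 (SE 0.14, adjusted p = 0.184). Cox17 and Cox14, the most abundant, differed by -0.05 and -0.07 with overlap. The median of this list was -0.09 after either scaling, beside 0.01 and 0.02 over all genes. Then 2 (median ratio) and 3 (quantile) of its 21 genes were lower at an unadjusted p under 0.05. Of the 10680 genes, 1190 and 1024 were so.

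Of the 12 genes of mitochondrial biogenesis, all tested, the median log2 difference was -0.13 (-0.04 after either scaling, beside 0.01 and 0.02 over all genes), none was called and 4 of 12 were lower without overlap against 0 higher, where 21.9% and 4.27% of all genes were so (limma; 0 higher and 4 lower at an unadjusted p under 0.05, lowest adjusted p = 0.0938). Ppargc1a, the coactivator PGC-1alpha, stood at 12.80, 8.18 and 7.88 FPKM in estrus against 12.93, 22.20 and 19.19 in diestrus (-0.85, SE 0.23, adjusted p = 0.119). Estrus replicate 1 and diestrus replicate 1 were nearly equal. Ppara, a receptor that drives fatty acid oxidation, stood at 7.54, 4.07 and 3.54 against 15.14, 10.67 and 13.81 (-1.28, SE 0.24, adjusted p = 0.0938), and the receptor Esrra, 1 of the 2 most abundant members, differed by -0.35 (SE 0.09, adjusted p = 0.108). Tfb2m, the other, differed by -0.08 with overlap. Without estrus replicate 1, Ppargc1a, Esrrg and Ppara were called lower, in a fit where 85 of 10653 genes (0.798%) were. No other library left out gave as many lower calls. Among the estrus libraries, replicate 1, which had the most Myh7, was the highest for 14 of 14 oxidase subunits, 13 of 21 genes of COX1 translation and assembly and 9 of 12 genes of biogenesis, and the part of the fibre mix in these lists was not tested.

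**Figure D3:**
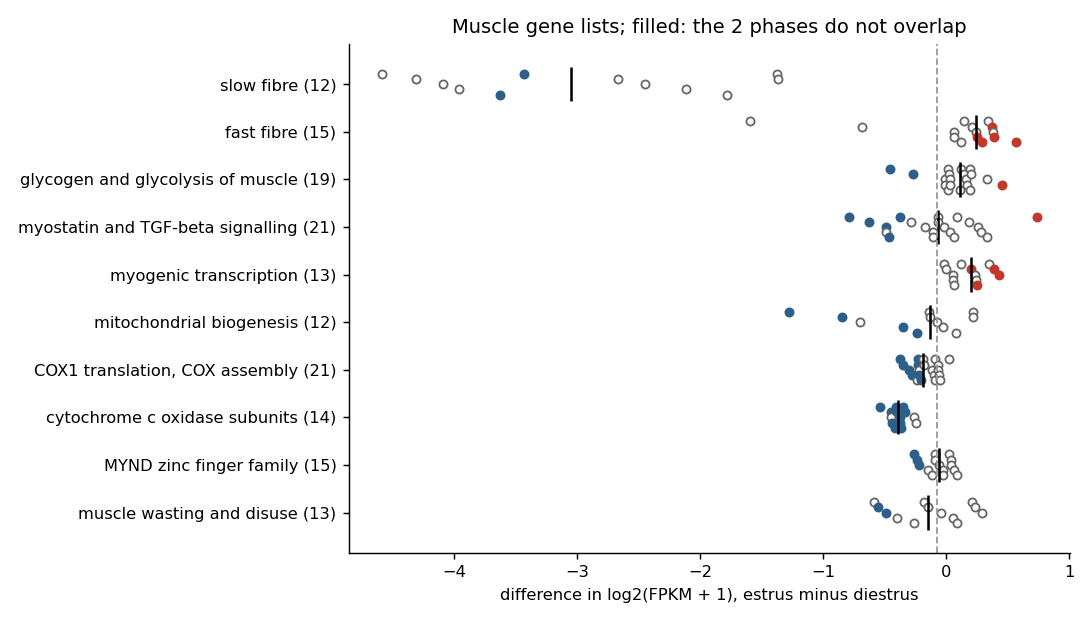
Difference in log2(FPKM + 1), estrus minus diestrus, for each tested gene of 10 lists in skeletal muscle, with the number tested in brackets; filled points have phases that do not overlap (red higher, blue lower in estrus), the black line is the median of a list and the dashed line the median of all genes, -0.08. The slow fibre list reaches from -4.59 to -1.37 and the oxidase subunits from -0.54 to -0.25.

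Other genes with a MYND zinc finger had small log2 differences in muscle. Mss51 was chosen for its difference and was the only gene of 10680 called higher. The lack of higher calls among the others therefore says nothing on the family. Of 21 such genes 15 were tested, none was called, and their log2 differences ran from -0.26 to 0.09 with a median of -0.06, which was 0.04 after median ratio scaling and 0.05 after quantile normalization (limma; 0 higher and 3 lower at an unadjusted p under 0.05, lowest adjusted p = 0.137). Smyd1, a methyltransferase of the sarcomere and the most abundant of them, stood at 182.45, 179.93 and 194.27 FPKM in estrus against 188.64, 178.63 and 180.56 in diestrus (0.02, SE 0.06, adjusted p = 0.871). Smyd2 differed by -0.09 with overlap (SE 0.23, adjusted p = 0.859). The 3 of 15 members without overlap were lower in estrus, a share near the 21.9% of all genes: the oxygen sensor Egln1 (-0.24, SE 0.07, adjusted p = 0.137), Zmynd8 (-0.26, SE 0.10, adjusted p = 0.206) and Deaf1 (-0.22, SE 0.09, adjusted p = 0.203). After either scaling, 0 of the 15 had an unadjusted p under 0.05. Genes of muscle wasting and disuse showed no common direction, with 13 of 17 tested, a median of -0.15, none called, and 0 higher and 3 lower at an unadjusted p under 0.05 (lowest limma adjusted p = 0.107). Trim63, the ubiquitin ligase MuRF1, differed by 0.09 and Foxo4 by 0.05, both with overlap. Musk, the receptor kinase of the neuromuscular junction, stood at 1.83, 1.36 and 1.38 against 3.19, 2.19 and 2.81 FPKM (-0.56, SE 0.13, adjusted p = 0.107), and Chrnd, the delta subunit of the acetylcholine receptor, differed by -0.49 (SE 0.19, adjusted p = 0.202), both without overlap. Of the 13 genes, 2 were lower and 0 higher without overlap, where 21.9% and 4.27% of all genes were so.

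Of the ovarian hormone receptors, Esr1 differed between the phases by less than the spread between libraries in muscle. Esr1, the estrogen receptor alpha, was at 6.98 FPKM ± 0.493 in estrus and 6.81 ± 0.440 in diestrus (SD, n = 3 each; 0.03, SE 0.08, limma adjusted p = 0.867). Pgr, the progesterone receptor, was at 0.01 to 0.21 FPKM and was not tested.

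None of the genes beside Mss51 on chromosome 14 was called, where Mss51 was the only gene of 10680 called higher and 0 were called lower. Ppp3cb, a catalytic subunit of calcineurin, lies 2462 bases away and was at 135 FPKM ± 2.0 in estrus and 121 ± 4.0 in diestrus (0.15, SE 0.06, limma adjusted p = 0.199). Anxa7, an annexin 2723 bases away on the other side, was at 21.8 ± 2.25 and 22.1 ± 0.973 (-0.03, SE 0.09, adjusted p = 0.891). Cfap70, 30592 bases away on the side of Anxa7, was at 0.13 and 0.0867 FPKM and was not tested. On the side of Ppp3cb, Usp54 lies 52010 bases away and was at 1.37 ± 0.0954 and 2.04 ± 0.675 (-0.34, SE 0.17, limma adjusted p = 0.316). Myoz1, the fast-fibre Z-disc protein and itself a member of the fast fibre list, lies 152200 bases away. It differed by 0.21 with overlap (SE 0.09, adjusted p = 0.267).

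The genes whose muscle pattern was most like that of Mss51 were chosen by Pearson's r of log2(FPKM + 1) over the 6 muscle libraries among 10679 genes, so that they share its split by phase by construction. They were Stat5b (r = 0.993), Angptl6 (0.986), Tmod1 (0.985), Ghr (0.983) and Cyp4f39 (0.981). Stat5b, a transcription factor of growth hormone signalling, stood at 60.77, 60.95 and 64.93 FPKM in estrus against 43.74, 47.67 and 45.13 in diestrus. Ghr, the growth hormone receptor, stood at 61.19, 62.03 and 60.68 against 51.62, 55.39 and 53.63. Tmod1, the cap of the thin filament, stood at 164.39, 165.44 and 176.70 against 131.42, 137.77 and 136.35. In all 3 the estrus libraries were close together, replicate 1 included, and the log2 differences of 0.44, 0.19 and 0.32 were smaller than the 1.27 of Mss51. With 6 points in 2 groups these values of r describe the samples only.

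Over the 15 tissue means, the 5 genes most like Mss51 by Pearson's r among 17288 genes were Mettl21e (0.954), Tab2 (0.904), Fam240a (0.903), Shisa2 (0.892) and 4930544D05Rik (0.881). Mettl21e, a muscle methyltransferase, shared both of the leading tissues, with means of 3.77 FPKM in muscle and 1.72 in spleen and at most 0.425 elsewhere. Shisa2 had 35.7 FPKM in muscle and 5.85 in uterus, and Tab2, an adaptor of TAK1 kinase signalling, 76.1 in muscle and 55.1 in spleen. By Spearman's rho none of these was among the 5 most alike, which were then Cd55, Cdc14a, Gps2, Eif2s2 and Gemin6. Tissue means share libraries, depth and the single high point of muscle, so that these values are descriptive.

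Outside muscle, a high Mss51 level did not always go with fast muscle transcripts. Spleen had Mss51 at 3.19 to 4.71 FPKM, while Actn3 was at 0 to 0.16 FPKM and the 12 skeletal fibre markers summed to 8.70 to 12.6 FPKM. Heart is striated muscle with Ckm at 1574 to 1781 FPKM, and its Mss51 was 0.19 to 0.37 FPKM with Actn3 at 0 to 0.18. In BAT, the diestrus replicate 3 library held skeletal fibre markers at 5410 FPKM in sum, 6.16% of the mean of muscle, and its Mss51 of 1.21 FPKM was the highest of that tissue and 9.90% of the mean of muscle. The other 5 BAT libraries had Mss51 at 0 to 0.59 FPKM, with marker sums of 29.2 to 1440 FPKM. The highest Mss51 among those 5 was in the library with the lowest marker sum. In uterus the sum was 9.68 to 90.9 FPKM beside 1.15 to 3.89 FPKM of Mss51.

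**Figure D4:**
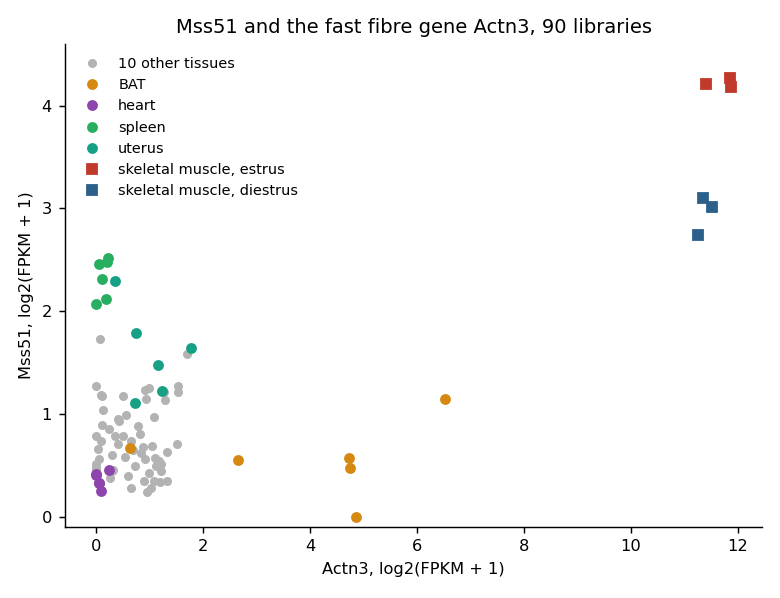
Mss51 against the fast fibre gene Actn3, both as log2(FPKM + 1), with 1 point per library; squares are skeletal muscle (red estrus, blue diestrus) and circles the other tissues. Spleen, in green, has Mss51 at 3.19 to 4.71 FPKM with Actn3 at no more than 0.16 FPKM, and the 6 muscle libraries are set apart at the right.

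Between the phases, Mss51 could be tested in 4 tissues outside muscle (a mean of 1 FPKM or more), and it passed the threshold in none of them. In uterus Mss51 stood at 2.11, 2.45 and 3.89 FPKM in estrus against 1.78, 1.34 and 1.15 in diestrus. All estrus libraries lay above the diestrus ones, with a log2 difference of 0.64 (SE 0.33, limma adjusted p = 0.897), and 3.24% of the genes tested in uterus were higher in this way. In ovary the values were 2.0, 1.42 and 1.38 against 1.32, 1.2 and 1.35 FPKM, also without overlap (0.18, SE 0.18, adjusted p = 0.910; 8.13% of genes were higher without overlap). In kidney, where it was not tested, they were 0.63, 0.93 and 0.72 against 0.36, 0.57 and 0.53 FPKM, without overlap. Of the genes tested in kidney, which average more than Mss51 did there, 4.25% were higher without overlap. In spleen they were 3.19, 3.35 and 4.48 against 4.58, 4.71 and 3.95 (-0.22, SE 0.13, adjusted p = 0.930), and in duodenum 2.31, 1.42 and 1.25 against 1.27, 1.05 and 0.86 (0.35, SE 0.24, adjusted p = 0.492), both with overlap. The phases thus separated in 3 of the 14 other tissues, with estrus higher in all 3, and overlapped in 11. The mean log2 difference was above 0 in 9 of the 14. It was below 0 in BAT (-0.44), stomach (-0.23), spleen (-0.22), cerebrum (-0.09) and WAT (-0.01). The share of all genes that separate in as many tissues was not computed. The study dissected its tissues from 3 mice per phase, so that the tissues are not independent. In ovary the gap was that of 1.38 against 1.35 FPKM, about 41 and 38 reads. The kidney values rested on about 9 to 23 reads each. In limma 0 genes (0.0%) were called in either direction in uterus, ovary, duodenum and kidney (199, 442, 284 and 188 higher, and 313, 368, 1393 and 169 lower, at an unadjusted p under 0.05), and in spleen 1 gene was called higher (0.00798%). A difference between the effect in muscle and that in another tissue was not tested, since the effect in muscle chose the gene.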

How the data were processed

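The authors filtered reads with SOAPnuke, aligned them to GRCm38.p5 with Bowtie2 2.2.5 and deposited 1 table of FPKM values estimated with RSEM 1.2.8 for 20414 Entrez genes and 90 libraries (TruSeq, not stranded). Symbols came from RefSeq (GRCm38.p6), for 20265 genes. Phases were compared within each tissue with limma 3.58.1 (R 4.3.3) on log2(FPKM + 1), with an intensity trend, over genes averaging 1 FPKM or more, and Benjamini-Hochberg adjustment over all of them. This scale understates changes of low genes. A call needed an adjusted p up to 0.05 and an absolute log2 difference of 1 or more; the script was tested on simulated data. The study's own count-based test needs counts and was not run. The labels do not tie tissues or replicate numbers to mice; the study's methods give 3 mice per phase. Named in each list were the 2 most abundant members and up to 3 without overlap, by size of difference; other members named were chosen after their values were seen. Members and lists were chosen with earlier results of these data known. Alternatives were other pseudocounts, scalings, filters and denominators, 1 library left out at a time, a replicate block and a fit of all libraries. A few members of the lists are not reported here by name.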

Additional observations from a re-analysis of the deposited data

How the results depend on the processing

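The muscle difference of Mss51 stayed between 1.15 and 1.39 on the log2 scale under every alternative run (1.16 to 1.34 with 1 library left out). The lowest value, 1.15, came from the 3 libraries chosen after the data had been seen. Since the gene was chosen for this difference, the range is a description. Mss51 was not called with a replicate block, without diestrus replicate 1 or 3, or without a filter, where 0 genes were called higher. With 3 libraries per phase, 1 library moved the number of called genes: higher, 1 in all libraries and 0 to 14 with 1 left out (14 when estrus replicate 3 was left out, 2 for estrus replicate 1, and 0 for diestrus replicate 1 or 3); lower, 0 and 0 to 85 (85 when estrus replicate 1 was left out, 2 for estrus replicate 3 and 1 for estrus replicate 2). Without a filter on low values 0 genes were called higher, and with 1 fit of all 90 libraries 12 were called lower. A replicate block gave 0 called higher and 3 lower; deviations of same-numbered libraries correlated at 0.11, 0.18 and 0.04, not above 0.1 in every pair, so the numbers were not taken as pairing, and estrus replicate 3 correlated best with diestrus replicate 1. Median ratio scaling and quantile normalization moved the list medians to 0.02 and 0.03 (myostatin and TGF-beta), 0.04 and 0.05 (MYND), 0.30 and 0.29 (myogenic), -0.09 each (COX1 translation and assembly) and -0.04 each (mitochondrial biogenesis), and quantile normalization moved the oxidase subunits to -0.14 and the fast fibre genes to 0.09. The myogenic median was 0.12 in the fit of all libraries and 0.11 to 0.18 with 1 library left out. The glycolysis median was -0.01 without estrus replicate 2 and ran from there to 0.26, and the wasting median was 0.07 with a filter at 5 FPKM. The ratio of Mss51 per fast gene was 1.77 with Myh4 and 2.29 with Ckm, and 0 of the 5 genes most alike over tissues were shared with Spearman's rho. Of 240 alternatives, 210 kept the direction and the side of the threshold or moved by less than the spread between replicates. Causes were not tested, beyond the smaller number of libraries or genes in some fits. In the tissues under 1 FPKM the few reads behind Mss51 limit what could be seen.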
